A study of Mus musculus with 8 samples.

Results

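The 8 genes described here encode transcription factors that set granulocyte and monocyte fate in myeloid progenitors: Cebpa, Cebpb, Cebpd, Cebpe, Gfi1, Spi1, Irf8 and Klf4. They were chosen by name and are 8 of the 32285 genes in the count matrix, and all 8 were found in it. The cells came from female C57BL6/J mice that carried a subcutaneous tumor grown from MOPC cells, a murine oropharyngeal carcinoma line, and each library pooled wild-type mice with mice of a gene knockout model labelled Genotype_02. Which hashtag belongs to which genotype was not given in the sources used here, so genotypes were not compared, and every sample carried the label of this tumor treatment. Viable lineage-negative Gr1+ cells and Gr1- cKit+ cells were sorted from blood, femoral bone marrow, spleen and enzymatically digested tumor. About 16000 cells per tissue were loaded for 1 RNA library and 1 matched library of antibody tags, and a difference between tissues cannot be told apart from one between libraries.

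The matrix held 20012 cells with 155600218 RNA molecules counted by unique molecular identifier (UMI): 7763 blood, 5682 marrow, 6105 spleen and 462 tumor cells, with median UMI counts of 3132, 7999, 3461 and 8663.5. A total of 31 barcode sequences occurred in more than 1 library. Cells were placed in 5 exclusive classes by other genes, which took in 16980 cells. Immature neutrophils had at least 1% of UMIs from the specific granule genes Camp, Ngp and Ltf. Azurophil-gene progenitors had at least 0.5% from Mpo, Elane, Prtn3 and Ctsg, monocytes had at least 2 Ly6c2 UMIs and 1 Csf1r UMI, mature neutrophils had at least 3% from S100a8 and S100a9 (1% in tumor), and Kit-positive cells had a Kit UMI and met none of these rules. UMIs were then summed per class, tissue and hashtag over 8 hashtags. A hashtag is an antibody barcode and was taken to mark 1 mouse within a tissue. The number of a hashtag was not stated to mark the same mouse in different tissues. A level is given in CPM, the UMIs of a gene per 1000000 RNA UMIs of such a sum, with the lowest, median and highest of the sums, and levels were compared only within a gene. Changes are log2 fold changes with standard errors from edgeR's quasi-likelihood test, with p-values adjusted over all genes tested by the Benjamini-Hochberg method and a threshold of 0.05.

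The factors act in a partly ordered and partly opposed circuit. PU.1, the product of Spi1, and C/EBP-alpha, the product of Cebpa, open the myeloid program in progenitors. IRF8 and KLF4 favour monocyte and dendritic cell fates, whereas the repressor GFI1 and C/EBP-epsilon carry cells through granule formation toward neutrophils. C/EBP-beta and C/EBP-delta are known from later granulocytes, from emergency granulopoiesis and from inflammatory monocytes and macrophages. In the mouse assembly GRCm38.p6, RefSeq places Cebpa at chr7:35119293-35121928, Cebpb at chr2:167688915-167690432, Cebpd at chr16:15887286-15889545 and Cebpe at chr14:54710363-54712174. Gfi1 lies at chr5:107716655-107725805, Spi1 at chr2:91082374-91115759, Irf8 at chr8:120736358-120756694 and Klf4 at chr4:55527137-55532475.

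Promoter windows from 250 bases before to 50 bases after the start site were matched in RefSeq (GRCm38.p6) for 5 of the 8 genes: Cebpa, Cebpb, Gfi1, Irf8 and Klf4. Gfi1 and Irf8 each had a second window, at chr5:107724294-107724593 and chr8:120738389-120738688, which held none of the motifs searched. The first windows of Gfi1 and Irf8 and that of Klf4 are printed because, of the 5 genes with a window, their RNAs separated most among marrow progenitors. Irf8 and Gfi1 were themselves used to divide those progenitors. Each is written 5′ to 3′ on the gene's own strand, with motif matches in capitals: Gfi1 on the minus strand at chr5:107725756-107726055, Irf8 on the plus strand at chr8:120736108-120736407 and Klf4 on the minus strand at chr4:55532426-55532725.
Gfi1: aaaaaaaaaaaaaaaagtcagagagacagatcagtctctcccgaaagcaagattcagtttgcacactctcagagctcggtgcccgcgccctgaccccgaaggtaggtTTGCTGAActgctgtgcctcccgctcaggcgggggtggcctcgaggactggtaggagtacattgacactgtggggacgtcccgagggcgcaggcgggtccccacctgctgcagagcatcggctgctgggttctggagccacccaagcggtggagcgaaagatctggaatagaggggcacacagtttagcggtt
Irf8: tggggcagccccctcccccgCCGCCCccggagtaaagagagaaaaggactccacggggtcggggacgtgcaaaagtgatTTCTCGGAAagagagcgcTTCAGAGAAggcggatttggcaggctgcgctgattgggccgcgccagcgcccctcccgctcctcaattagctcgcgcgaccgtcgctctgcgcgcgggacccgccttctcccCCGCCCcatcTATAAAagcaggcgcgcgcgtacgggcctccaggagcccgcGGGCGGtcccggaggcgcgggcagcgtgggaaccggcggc
Klf4: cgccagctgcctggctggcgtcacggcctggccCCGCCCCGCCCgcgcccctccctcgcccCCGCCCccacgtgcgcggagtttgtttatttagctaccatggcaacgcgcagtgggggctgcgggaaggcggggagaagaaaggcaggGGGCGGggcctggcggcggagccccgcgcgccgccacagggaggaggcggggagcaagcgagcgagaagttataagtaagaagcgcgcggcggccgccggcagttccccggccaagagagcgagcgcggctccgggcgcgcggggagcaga
Both strands were searched for 7 motifs: TTGCNNAA (C/EBP), GAGGAAGT (PU.1), CCGCCC (GC box, read by SP and KLF proteins), TTCNNNGAA (a STAT-type GAS site), TATAAA, GAAANNGAA (IRF) and AAATCNNNG (GFI1). The first Gfi1 window held TTGCNNAA once, at -143 counted from 0 at the start site, a motif found in 10.8% of the 32544 promoter windows searched. The first Irf8 window held TTCNNNGAA at -171 and -153 (in 8.33% of all windows), CCGCCC at -230, -41 and 10 (35.9%) and TATAAA at -31 (13.6%). In the Klf4 window the capitals mark CCGCCC or its reverse complement at -217, -212, -189 and -101, of which the matches at -217 and -212 overlap. GAGGAAGT (3.11% of all windows), GAAANNGAA (8.53%) and AAATCNNNG (10.5%) did not occur in the 3 printed windows. These matches describe letters in the windows and no binding was measured.

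In bone marrow, all 8 factors were higher in azurophil-gene progenitors than in Kit-positive cells. The label granulocyte progenitor did not hold for every cell of this second class: 202 of its 351 cells also met the monocyte rule, so it is named here by its azurophil granule genes. A Kit UMI was present in 192 of the 351 cells, which the rules kept out of the Kit-positive class. That class thus holds only the Kit-bearing cells that met no other rule. Spi1 was at 46.7, 77.7 and 105 CPM (lowest, median and highest of 8 sums) in Kit-positive cells and at 247, 288 and 342 CPM in progenitors (7 sums). Irf8 went from 29.8, 73.1 and 108 CPM to 275, 317 and 369 CPM, and no progenitor sum of either gene overlapped the Kit-positive sums. Cebpa, the pioneer of the granulocyte-monocyte step, rose by 2.01 ± 0.17 on the log2 scale, from 7.37 to 17.6 CPM up to 36.4 to 66.1 CPM. Klf4 was at 0 to 28.8 CPM and then at 84.5 to 122 CPM, and Gfi1 at 0 to 10.7 CPM and then at 20 to 59.5 CPM. The ranges of all 8 genes were apart between the classes. The share of all genes with ranges apart was not computed, for this or later comparisons. Such counts describe the members and are not read as particular to them. The other rises were 3.46 ± 0.14 for Cebpb, 3.76 ± 0.16 for Cebpd, 3.97 ± 0.30 for Cebpe, 2.71 ± 0.25 for Gfi1, 1.91 ± 0.10 for Spi1, 2.28 ± 0.18 for Irf8 and 3.37 ± 0.32 for Klf4 (edgeR, largest adjusted p = 2.71e-12). Of all 11057 genes tested, 43.4% passed in this comparison, so 8 of 8 stood above the background share. The median log2 change of the 8 was 3.04, against -0.05 over all genes. Progenitor cells had a median of 29016 UMIs and Kit-positive cells 17198.

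From progenitors to immature neutrophils the 8 factors parted. Of the 351 progenitors, 202 also met the monocyte rule. Their part in this step, here and in the gene lists below, was not tested. Cebpe, the factor of specific granule formation, rose from 54.0, 67.5 and 113 CPM to 443, 470 and 532 CPM. Cebpd rose from 80.7, 106 and 150 CPM to 276, 288 and 308 CPM, and Spi1 to 362, 397 and 454 CPM. These 3 ranges lay wholly above those of the progenitors, with log2 changes of 2.68 ± 0.15, 1.46 ± 0.10 and 0.48 ± 0.08; with TMM factors, which scale to the bulk of genes, that of Spi1 was 1.44. Irf8 fell to 0.399, 2.50 and 10.8 CPM and Klf4 to 0, 0.790 and 10.2 CPM, log2 changes of -6.06 ± 0.24 and -4.83 ± 0.32. Cebpa fell by 2.98 ± 0.16 on the log2 scale to a median of 5.30 CPM. Cebpb fell by 1.16 ± 0.10 to 83.4, 111 and 135 CPM, but with TMM scaling its change was -0.21 (adjusted p = 0.112). Gfi1 fell by 0.95 ± 0.17, from 20, 36.7 and 59.5 CPM to 12.2, 17.7 and 20.4 CPM with ranges that touched, and this call also rested on the scaling: its change was 0.01 with TMM factors and -0.43 in DESeq2 (adjusted p = 0.0812). The largest adjusted p among the 8 was 3.02e-06 in edgeR. Background calls were very frequent in this comparison: 85% of the 11057 genes passed, so the count of 8 of 8 members was close to the background. Granule genes take a large share of immature neutrophil RNA, and the all-gene median was -1.0 with library totals, -0.05 with TMM factors and -0.45 in DESeq2. The median of the 8 members was -1.06. In progenitors with a Gfi1 or Cebpe UMI and no Irf8 UMI, described below, Cebpb was at 88.8, 108 and 134 CPM. Klf4 was at 0 in 6 of 7 sums there. Medians there were 56.8 CPM for Cebpa, 98.3 CPM for Cebpd and 261 CPM for Spi1.

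From immature to mature neutrophils of the marrow, Cebpe and Gfi1 fell and Cebpb, Cebpd and Spi1 rose. Cebpe fell from 443 to 532 CPM down to 34.1, 44.2 and 65.1 CPM, a log2 change of -3.37 ± 0.17, and Gfi1 fell to 0, 1.14 and 5.12 CPM (-3.28 ± 0.37). Cebpb rose to 315, 420 and 530 CPM (1.97 ± 0.10), Cebpd to 408, 473 and 580 CPM (0.71 ± 0.09) and Spi1 to 643, 684 and 793 CPM (0.79 ± 0.08). The ranges of these 5 genes did not overlap between the classes. Cebpa rose by 0.75 ± 0.25 (adjusted p = 0.00814, edgeR) to a median of 9.85 CPM with overlapping ranges, and without the sums of hashtag 6 the change was 0.55 (adjusted p = 0.0939). Irf8 and Klf4 remained near 0 in both classes, at medians of 1.99 and 0 CPM in mature cells, and neither passed the test. In this step 61.8% of all genes passed and 6 of 8 members did; the member median was 0.10 against -0.28 over all genes.

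**Figure D1:**
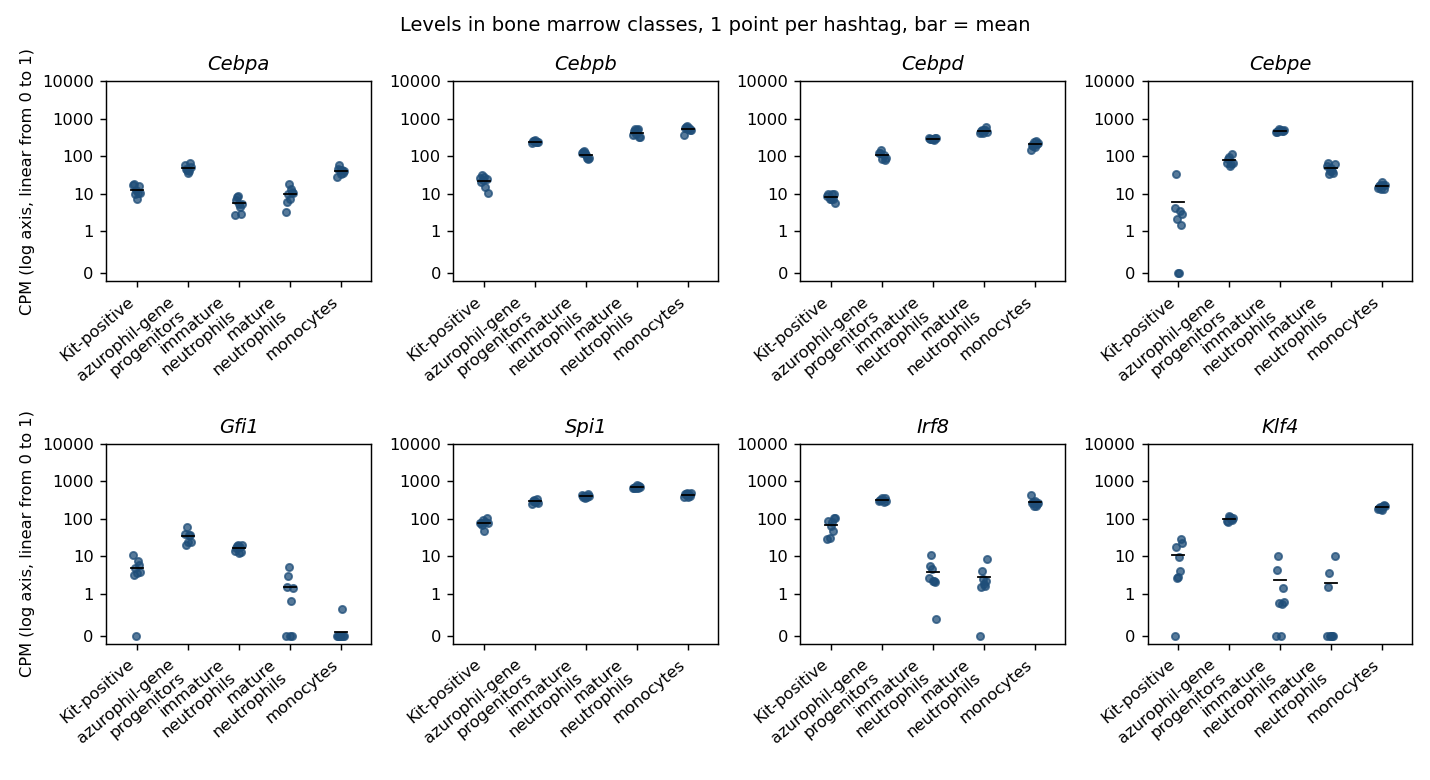
Level of each factor in the 5 marrow classes, in CPM on a log axis that is linear from 0 to 1; each point is the summed cells of 1 hashtag and the bar is the mean. Cebpe has its highest points in immature neutrophils (443 to 532 CPM), Gfi1 in progenitors (20 to 59.5 CPM), and Irf8 and Klf4 are high in progenitors and monocytes and near 0 in both neutrophil classes.

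Monocytes and mature neutrophils of the marrow differed in the pairs Irf8 and Klf4 against Cebpd, Cebpe and Spi1. Irf8 was at 219, 263 and 426 CPM in monocytes and at 0, 1.99 and 8.68 CPM in mature neutrophils, and Klf4 at 175, 197 and 232 CPM against 0, 0 and 10.1 CPM. Their log2 differences were 6.32 ± 0.33 and 6.38 ± 0.42. Cebpa was also higher in monocytes, at 28.4, 40.9 and 57.5 CPM against 3.34, 9.85 and 17.9 CPM (2.08 ± 0.20). Mature neutrophils had more Cebpd (408 to 580 CPM against 149 to 260, a monocyte-minus-neutrophil difference of -1.20 ± 0.09), Cebpe (-1.46 ± 0.27) and Spi1 (-0.65 ± 0.08, and -1.25 with TMM factors). None of these 6 pairs of ranges overlapped. Cebpb was higher in monocytes with library totals (0.34 ± 0.10, adjusted p = 0.00136) but lower with TMM factors (-0.28) and in DESeq2 (-0.24), so no direction is stated for it. Gfi1 was lower in monocytes (adjusted p = 0.00516), on 1 UMI in monocyte sums against 10 in mature neutrophil sums, a ratio of 13.3 with an exact 95% interval of 1.89 to 577 that covers counting error only. Without hashtag 3 the Gfi1 call was lost (adjusted p = 0.0577). Of all genes 81.6% passed and 8 of 8 members did, with a member median of -0.16 against 1.12 over all genes.

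A Cebpe UMI was seen in 81.9% of marrow immature neutrophils (exact 95% interval 80.1 to 83.5%, median 9781.5 UMIs per cell), in 45.3% of progenitors and in 14.8% of mature neutrophils (median 3657.5 UMIs). Thinned to 1000 UMIs per cell, these shares were 29.9%, 6.32% and 4.50%. An Irf8 UMI was seen in 68.3% of marrow monocytes (median 10190.5 UMIs) and 1.31% of mature neutrophils, and a Klf4 UMI in 61.9% and 0.536%. For background, 214 T cells that met no class rule (median 7292.5 UMIs) had an Irf8 UMI in 18.7%, a Klf4 UMI in 6.54%, a Gfi1 UMI in 4.67% and a Cebpe UMI in 0.467%, and T cells are known to express some of these genes. In 231 globin-rich red cells (median 6770 UMIs) the shares were 0.433% for Irf8, 8.23% for Spi1 and 9.96% for Cebpb, and no Klf4, Gfi1 or Cebpe UMI was counted, which allows a share of cells with a UMI of up to 1.30%. Marrow immature neutrophils had an Irf8 UMI in 4.73% and a Klf4 UMI in 3.72%. The exact 95% interval of the Irf8 share was 0.823 to 1.98% in mature neutrophils and 0.0110 to 2.39% in red cells, so these overlapped.

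Whether single progenitors hold both sides of the circuit was examined in the 325 marrow azurophil-gene progenitors with at least 10000 UMIs, each thinned to that depth. An Irf8 UMI was present in 219 of them, a Klf4 UMI in 122, a Cebpe UMI in 113 and a Gfi1 UMI in 72. Gfi1 and Klf4 were found together in 1 cell, where the product of their shares gives 27.0. Gfi1 and Irf8 met in 16 cells against 48.5, Cebpe and Klf4 in 19 against 42.4, and Cebpe and Irf8 in 38 against 76.1. These 4 cross pairs all fell short of the product of the shares. The pairs on the same side went the other way: Irf8 and Klf4 shared 121 cells against 82.2, and Cebpe and Gfi1 45 against 25.0. All but 1 of the 122 cells with Klf4 thus also had Irf8. Cebpb and Cebpd went with Klf4 (115 cells against 94.6, and 98 against 75.5), whereas Cebpa went with Gfi1 (36 against 27.7) and less with Klf4 (33 against 46.9). Spi1 was present in 299 of the 325 cells (92.0%), so its counts with a partner could hardly exceed the product of the shares at this depth and are not read. Thinned to 1000 UMIs, where 89 of 348 progenitors had a Spi1 UMI, Spi1 and Irf8 met in 27 cells against 17.9 and Cebpb and Spi1 in 30 against 19.9. These counts are a description over cells of 1 library and carry no test.

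**Figure D2:**
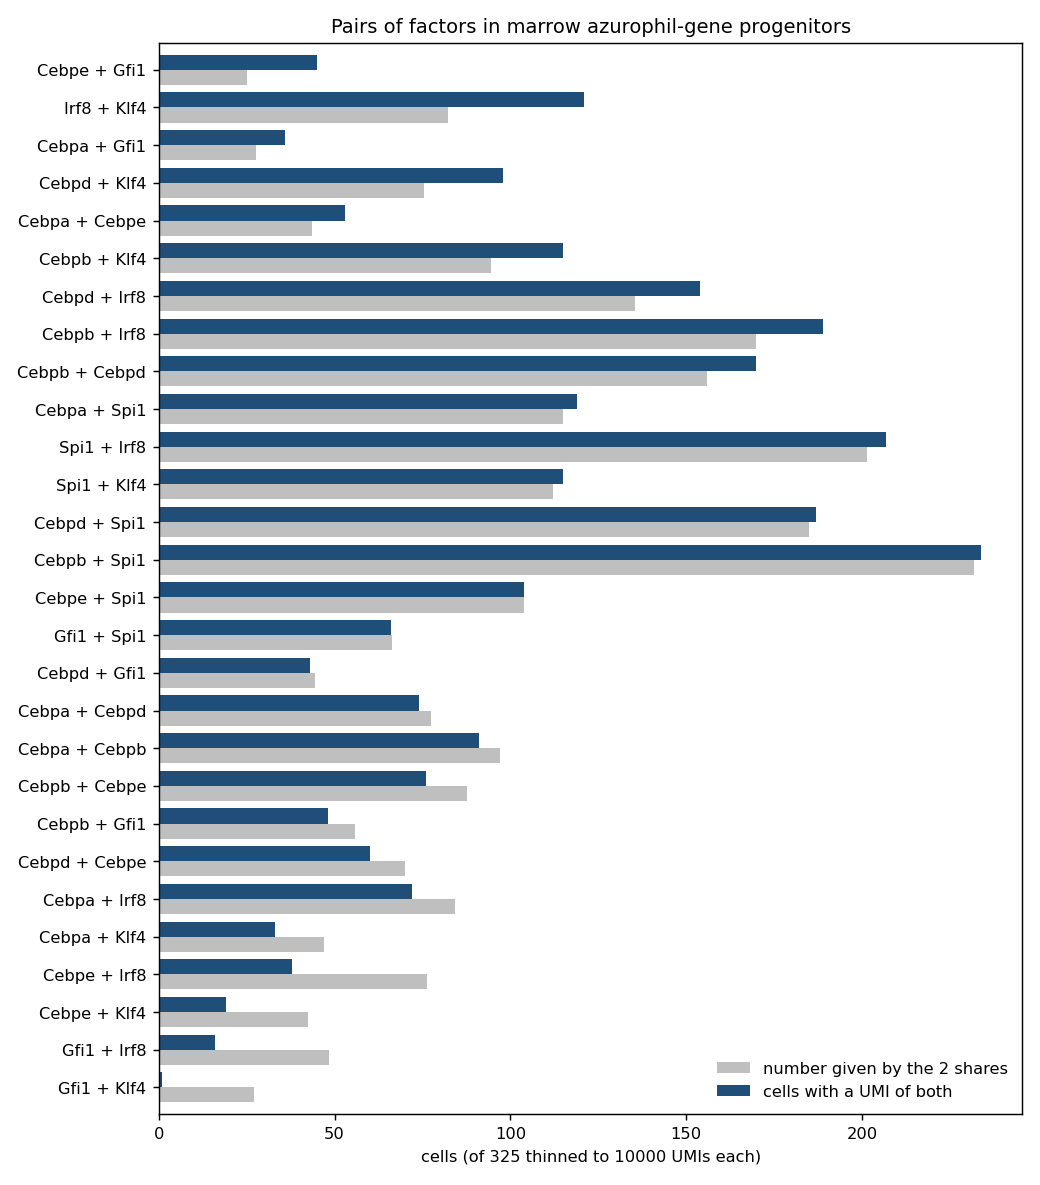
Number of marrow azurophil-gene progenitors with a UMI of both genes (dark bars) and the number the product of the 2 shares gives (grey bars) for all 28 pairs, in 325 cells thinned to 10000 UMIs each. Dark bars exceed grey ones for Cebpe with Gfi1 and Irf8 with Klf4 and fall short for Gfi1 or Cebpe with Irf8 or Klf4.

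By these UMIs, 170 of the 325 cells held Irf8 without Gfi1 or Cebpe (the Irf8 side), 91 held Gfi1 or Cebpe without Irf8, 49 held both and 15 neither. Per hashtag the Irf8 side made up 54.2% ± 9.39 (SD, n = 8) of the cells, the Gfi1 or Cebpe side 26.3% ± 6.61 and cells with both 14.7% ± 6.98. The monocyte rule was met by 149 of the 170 and by 10 of the 91 cells, and a Kit UMI was present in 54 and 85 of them. Median depths were 30518 and 29446 UMIs. Irf8, Gfi1 and Cebpe made the sides and were not tested; their mean levels were 477 against 9.49 CPM, 4.14 against 95.7 CPM and 6.65 against 237 CPM.

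Of the other 5 factors, Klf4 and Cebpb separated with the sides. Klf4 was at 128, 149 and 243 CPM on the Irf8 side of the 7 hashtags with both sides and at 0 in 6 of the 7 sums on the other, with 760 UMIs against 1 over all sums. That is a ratio of 369 with an exact 95% interval of 66.1 to 14599 for counting error only (edgeR adjusted p = 8.11e-19). Cebpb was at 269, 319 and 345 CPM against 88.8, 108 and 134 CPM, ranges apart, with a log2 difference of 1.53 ± 0.10. Spi1 was at 301, 308 and 357 CPM against 191, 261 and 323 CPM with overlapping ranges; its difference of 0.30 ± 0.09 passed (adjusted p = 0.00643) but not in DESeq2 (0.27, adjusted p = 0.113) or when cells were thinned to 5000 UMIs (0.21, adjusted p = 0.155). Cebpa, at 35.1 to 53.1 CPM against 35.2 to 74.5 CPM, did not pass (-0.30 ± 0.17, adjusted p = 0.181), nor did Cebpd (0.30 ± 0.13, adjusted p = 0.0816), which passed only without hashtag 5. Here 31.9% of 7296 genes passed and 3 of 5 tested members did.

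Other genes that separated the sides included known lineage genes. On the Irf8 side, Lgals3, a galectin of mononuclear phagocytes, was at 505 ± 40.2 CPM against 6.87 ± 4.33 CPM (SD, n = 7; log2 difference 6.06 ± 0.17). Ly86, the partner of the TLR-like receptor RP105, differed by 5.75 ± 0.24. Trem2, a lipid-sensing receptor, was counted on the Irf8 side only, at least 39.8-fold higher against a floor of 3 UMIs over the group, and Aif1 at least 38.5-fold. Ahnak, Ctss, Ms4a4c and Itga1 had 1 to 3 UMIs on the Gfi1 or Cebpe side, with ratios of 285 (51.0 to 11280), 141 (38.9 to 1168), 111 (19.7 to 4393) and 81.4 (27.7 to 396). On the Gfi1 or Cebpe side, Cd63, a granule membrane tetraspanin, was at 701 ± 89.0 CPM against 27.9 ± 13 CPM (-4.60 ± 0.13). Vcam1, an adhesion molecule, differed by -5.12 ± 0.44, the nuclear envelope gene Syne1 by -4.78 ± 0.24 and Pglyrp1, a granule protein that binds peptidoglycan, by -3.71 ± 0.21. Vat1 and Sept1 differed by -3.83 ± 0.23 and -3.73 ± 0.32. Dnajc6 and Olr1 differed by -3.57 ± 0.36 and -3.45 ± 0.34. The eosinophil granule genes Prg2 and Prg3, named after their values were seen, were uneven there: Prg2 reached 4794 CPM in 1 hashtag, 506 in the next and 0 in 2 of 7.

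Surface protein tags, which were not used to form the sides, differed too. CD115, the CSF1 receptor, made up 108 ± 15.7 of 10000 surface tag counts on the Irf8 side and 8.90 ± 2.54 on the Gfi1 or Cebpe side (SD, n = 7 hashtags). It was higher in 7 of 7 hashtags, with a mean per-cell log2 difference of 4.36 ± 0.39 (SD; exact two-sided sign-flip permutation test, p = 0.0156, the smallest that 7 pairs allow, adjusted over 18 tags p = 0.0234). Ly6C (867 against 404 per 10000), CD62L (4051 against 1255) and the Fc receptor tag CD1632 (465 against 359) were likewise higher in 7 of 7. The tag for cKit, the stem cell factor receptor, was lower on the Irf8 side, at 80.6 against 408 per 10000 (log2 difference -4.05 ± 0.51). CD106, the protein of Vcam1, was at 13.8 ± 7.98 against 290 ± 180 per 10000 (-4.12 ± 0.96), and CD49d, CD24, CXCR4, CD64, CD69 and MHCII were lower in 7 of 7 hashtags as well. CD44 was lower in 6 of 7 (adjusted permutation p = 0.0433). CD11b, CD11a, CD14, CCR2 and CXCR2 did not pass, so 13 of 18 tags did. Differences are means of per-cell log2 shares and so are not the logarithm of the ratio of pooled shares. Shares of the 18 tags add up to 10000, so the larger share of CD62L on the Irf8 side lowers the other shares. This part of each difference was not separated, and the CD44 difference of -0.50 ± 0.25 (SD) is not read as less CD44 per cell.

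**Figure D3:**
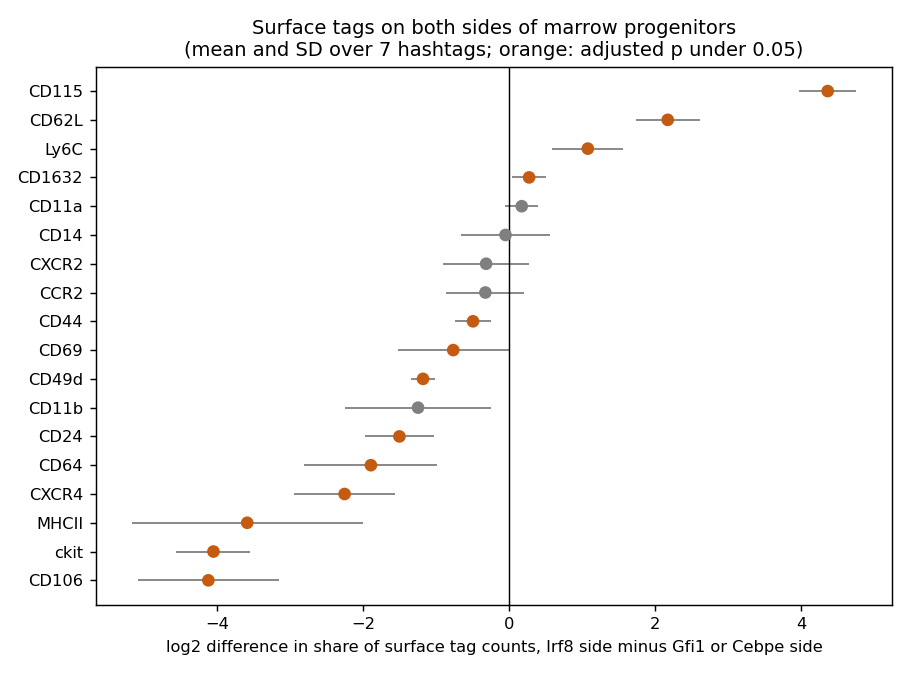
Log2 difference in the share of surface tag counts between the Irf8 side and the Gfi1 or Cebpe side of marrow progenitors for 18 antibody tags; points are means and lines SD over 7 hashtags, and orange marks adjusted p under 0.05. CD115 lies farthest to the right (4.36) and CD106 (-4.12) and cKit (-4.05) farthest to the left.

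Genes known as targets of the factors are given as counts, since their lists were drawn up with earlier results of these data known. Over all genes, 21.1% rose and 22.3% fell from Kit-positive cells to progenitors, 19.1% and 65.9% from there to immature neutrophils and 25.5% and 36.3% with maturation, and 60.8% were higher and 20.9% lower in monocytes than in mature neutrophils. Of 12 C/EBP targets of granulocytes, 9 rose and 0 fell from Kit-positive cells to progenitors (median 0.88), among them the lysozyme gene Lyz2 (3.15 ± 0.11), the oxidase subunit gene Cybb (3.89 ± 0.20) and Il6ra (2.22 ± 0.15). From progenitors to immature neutrophils 11 rose and 1 fell, with a median of 5.50 against -1.0 over all genes, and Lcn2 rose by 7.20 ± 0.14, Cd177 by 7.17 ± 0.14 and the collagenase gene Mmp8 by 6.75 ± 0.14. With maturation 8 of the 12 fell and 4 rose: Orm1 fell by 6.69 ± 0.21 and Chil3 by 5.01 ± 0.22, while the G-CSF receptor gene Csf3r rose by 3.01 ± 0.10. The class rule chose immature neutrophils by the granule genes Camp, Ngp and Ltf, and mature ones lay below its limit. Rises and falls of granule genes expressed with these were thus partly set by the rule and are not read as activity of the factors. Of 12 PU.1 targets, 10, 8 and 10 rose and 0, 2 and 1 fell in these 3 steps, with Itgam (CD11b) up by 4.70 ± 0.11 in immature neutrophils. In monocytes against mature neutrophils, 5 C/EBP targets were higher and 6 lower, and 3 PU.1 targets were higher and 7 lower.

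Of 10 measured IRF8 or KLF4 targets, 9 rose and 1 fell from Kit-positive cells to progenitors (median 2.02). Ly86 (3.41 ± 0.22), Psap (1.88 ± 0.15) and Pld4 (3.71 ± 0.30) had the smallest adjusted p. In immature neutrophils 0 rose and 9 fell (median -2.30), in a step where 65.9% of all genes fell and their median was -1.0, or -0.05 with TMM factors. The falls included Ly86 (-5.16 ± 0.23) and Pld4 (-4.00 ± 0.25), and in monocytes 9 were higher than in mature neutrophils and 0 lower (median 4.64, against 60.8% of all genes higher and a median of 1.12), including the lysosomal reductase gene Ifi30 (6.36 ± 0.25). On the Irf8 side of the progenitors 7 of 8 were higher and 0 lower (median 4.04), where 18.2% of all genes were higher and 13.6% lower. There 8 of 11 PU.1 targets were higher and 1 lower and 4 of 8 C/EBP targets higher and 2 lower. Both measured GFI1-repressed genes, Hoxa9 and Meis1, were lower on the Irf8 side. Of 8 measured genes known to be repressed by GFI1, 1 rose and 3 fell in progenitors, 3 rose and 3 fell in immature neutrophils, and 4 rose and 2 fell in mature ones. The homeobox gene Hoxa9 fell in progenitors (-1.21 ± 0.22) and again in immature neutrophils (-3.66 ± 0.33), and Socs3 and Csf1 rose by 4.25 ± 0.35 and 3.33 ± 0.29 with maturation. Of 46 measured other regulators of myeloid fate, 10 rose and 19 fell in progenitors, where Id1 rose by 4.62 ± 0.26 and the erythroid factors Gata1 and Gfi1b fell (-5.35 ± 0.32 and -6.01 ± 0.34). In immature neutrophils 19 rose and 19 fell, a called share close to the 85% of all genes, with Mxd1, an antagonist of Myc, up by 4.85 ± 0.15 and Myb down (-2.93 ± 0.12). With maturation 23 rose and 13 fell, and in monocytes against mature neutrophils 16 were higher and 17 lower. On the Irf8 side of the progenitors 10 of 25 were higher and 10 lower, with Zeb2 at 1.45 ± 0.09 and Myb at -1.85 ± 0.08.

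Mature neutrophils of the blood held more Cebpb, Cebpd and Spi1 than those of the marrow. Cebpb was at 555, 786 and 828 CPM in blood against 315, 420 and 530 CPM in marrow, Cebpd at 731, 742 and 801 CPM against 408, 473 and 580 CPM, and Spi1 at 1047, 1105 and 1184 CPM against 643, 684 and 793 CPM. No blood sum of these genes overlapped the marrow sums, with log2 differences of 0.80 ± 0.13, 0.66 ± 0.09 and 0.68 ± 0.06. Cebpe was lower in blood, at 13.4, 18 and 22.7 CPM against 34.1, 44.2 and 65.1 CPM (-1.36 ± 0.17), again with ranges apart. Cebpa and Irf8 did not pass. Klf4 was at 1.44, 6.72 and 9.30 CPM in blood and at 0, 0 and 10.1 CPM in marrow and did not pass (1.40 ± 0.61, adjusted p = 0.0580), but did with the hashtag number as a replicate block (1.57, adjusted p = 0.0135). In this comparison 45.6% of 8361 genes passed and 4 of 7 tested members did, with a member median of 0.66 against 0.27 over all genes. The all-gene median was 0.03 with TMM factors and the share of called genes that were higher in blood moved from 77.4% to 54.2%.

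Beside these members, 26 of 37 other regulators rose from marrow to blood and 5 fell, where 35.3% of all genes rose and 10.3% fell, a split that moves with TMM factors as given above. Klf2 (1.90 ± 0.08), Junb (2.12 ± 0.09) and Fos (3.37 ± 0.19) had the smallest adjusted p of these regulators. Of 10 measured C/EBP targets 2 rose and 8 fell, with Csf3r up by 1.20 ± 0.06 and Cd177 down (-3.02 ± 0.14). Of 12 PU.1 targets 6 rose and 0 fell, of 10 IRF8 or KLF4 targets 8 rose and 0 fell, with Cd14 at 2.31 ± 0.19, and of 7 GFI1-repressed genes 5 rose and 0 fell, with Csf1 at 3.11 ± 0.20. Summed markers of macrophages were at 54.7 to 97.0 CPM in the marrow sums and 156 to 342 CPM in the blood sums, and those of neutrophils at 295863 to 352211 and 159979 to 214899 CPM; those of red cells were at 2.16 to 168 and 134 to 14317 CPM. Their part in these changes was not tested.

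Spleen and blood neutrophils differed in 2 of the factors. Of all genes 14.4% passed (1204, and 2034 with the hashtag number as a replicate block), and of 7 tested members Irf8 was higher in spleen (1.40, 7.48 and 30.3 CPM against 0.674, 3.31 and 5.00 CPM; 1.54 ± 0.43, adjusted p = 0.0121) and Cebpd lower (550, 639 and 685 CPM against 731, 742 and 801 CPM; -0.27 ± 0.09, adjusted p = 0.0313). The Irf8 ranges overlapped, and without spleen hashtag 2, which held 38 UMIs, the difference was 1.00 (adjusted p = 0.0999). The Cebpd ranges did not overlap, though its call was lost in 6 of 24 alternative settings. The member median was -0.10 against 0.07 over all genes. Spi1 was at 1030, 1155 and 1267 CPM in spleen and Cebpb at 525, 698 and 792 CPM, with overlap in both. Dendritic cell markers summed to 14.8 to 56.8 CPM in blood and 28.2 to 215 CPM in spleen sums, and red cell markers to 134 to 14317 and 2.50 to 12.6 CPM. Their part in the differences was not tested. Between the tissues, where 8.73% of all genes rose and 5.67% fell, 5 other regulators rose and 5 fell, with Fos at -0.82 ± 0.15 in spleen; 3 of 10 C/EBP targets were higher (Csf3r 0.31 ± 0.06) and 0 lower.

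In tumor, Cebpb was the highest of any group summed, and Cebpd and Spi1 in neutrophils were lower than in blood. The 4 sums of tumor mature neutrophils held 5 to 18 cells each. Cebpb was at 2082, 2706, 3551 and 4833 CPM, against 555 to 828 CPM in blood (2.19 ± 0.16). Cebpd was at 31.1, 153, 214 and 263 CPM against 731 to 801 CPM (-2.06 ± 0.16) and Spi1 at 344, 474, 498 and 526 CPM against 1047 to 1184 CPM (-1.24 ± 0.10). All 3 ranges were apart. Irf8 was at 7.29, 20.2, 98.3 and 124 CPM (4.08 ± 0.69 against blood) and Klf4 at 20.2, 21.9, 69.4 and 156 CPM (3.10 ± 0.70), spread over more than an order of magnitude for Irf8. Cebpa had 0 UMIs among 391720 in these sums, at least 1.55-fold lower than in blood, a call at adjusted p = 0.0491 that was lost in 13 of 21 alternative settings; over all 121 cells, hashtag unknown included, 5 UMIs were counted, or 4.43 CPM against 12.4 CPM over all blood neutrophils. Cebpe did not pass. In this comparison 38.2% of genes passed and 6 of 7 tested members did, with a member median of -0.84 against -0.14 over all genes.

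Irf8 and Klf4 differed within the tumor class by its share of S100a8 and S100a9. In the 56 cells with 1% to under 3% S100a8 and S100a9, Irf8 was at 98.0 CPM (70 UMIs) and Klf4 at 119 CPM (85 UMIs), beside 2516 CPM of macrophage markers and 19781 CPM of neutrophil markers. In the 65 cells with at least 3%, Irf8 was at 7.23 CPM (3 UMIs) and Klf4 at 26.5 CPM (11 UMIs), beside 701 and 61820 CPM of those markers. Cebpb was high in both, at 3431 and 4346 CPM, and Spi1 was at 459 and 429 CPM. With the 3% rule of the other tissues, 2 sums remained, 3 members passed, and neither Irf8 (0.89, adjusted p = 0.802) nor Klf4 (-0.02, adjusted p = 0.997) did. All 6 macrophage markers had UMIs in tumor neutrophils, at 384 to 1835 CPM per sum against 156 to 342 CPM in blood. T cell markers summed to 0 to 1617 CPM in tumor neutrophil sums and 8.75 to 42.9 CPM in blood, and dendritic cell markers to 0 to 815 and 14.8 to 56.8 CPM. Their part in the Irf8 difference was not tested. The tumor was the only tissue digested with enzymes, for 45 minutes at 37 °C, and digestion, tumor and library cannot be told apart.

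Of 37 other regulators, 22 rose in tumor neutrophils and 8 fell (median 1.64), against 18.6% and 19.6% of all genes (median -0.14), among them the immediate-early gene Egr1 (5.98 ± 0.28) and Ets2 (3.25 ± 0.15). Of 10 C/EBP targets 1 rose and 6 fell, with Csf3r at -1.67 ± 0.09 and Mmp8 at -3.75 ± 0.34. Of 12 PU.1 targets 5 rose and 3 fell. Of 10 IRF8 or KLF4 targets 7 rose and 0 fell, with Cd14 at 5.69 ± 0.15, and of 7 GFI1-repressed genes 6 rose and 0 fell, with Cdkn1a at 9.66 ± 0.30. Egr1 and Ets2 are in both the regulator and the GFI1 list.

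Among monocytes, the blood against the marrow had more Cebpa, Cebpb, Cebpd and Spi1 and less Irf8, Klf4 and Cebpe. Irf8 was at 116, 143 and 196 CPM in blood against 219, 263 and 426 CPM in marrow (-0.84 ± 0.14) and Klf4 at 86.7, 112 and 129 CPM against 175, 197 and 232 CPM (-0.88 ± 0.13). Spi1 was at 597, 663 and 812 CPM against 386, 455 and 495 CPM (0.59 ± 0.09). The ranges of these 3 genes were apart. Cebpa rose by 0.81 ± 0.16, Cebpb by 0.41 ± 0.11 and Cebpd by 0.31 ± 0.10, and Cebpe fell by 1.28 ± 0.32, all 4 with overlapping ranges (edgeR, largest adjusted p = 0.0206). No Gfi1 UMI was counted in 702 blood monocytes, which allows a share of cells with a UMI of up to 0.427% and sets no limit on cells that express the gene. In this comparison 37.7% of 9493 genes passed and 7 of 7 tested members did, and the member median was 0.31 against -0.06 over all genes. With cells thinned to 1000 UMIs, 1 member was called. Cebpb (0.33), Cebpd (0.27), Spi1 (0.44) and Klf4 (-0.74) kept their direction there and did not pass. Red cell markers summed to 55.1 to 6335 CPM in blood and 0 to 17 CPM in marrow monocyte sums, and macrophage markers to 489 to 1622 and 186 to 675 CPM; their part was not tested. Over all genes 14.7% rose and 23.0% fell. Of 40 other regulators 23 rose and 3 fell, with Fos at 2.73 ± 0.15 and Klf2 at 2.24 ± 0.13. Of 11 IRF8 or KLF4 targets 8 rose and 0 fell, with Ctss at 1.07 ± 0.10.

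Tumor monocytes, in 3 sums of 6 to 11 cells, had Cebpb at 1795, 2742 and 2770 CPM against 547 to 809 CPM in blood (1.77 ± 0.14) and Klf4 at 195, 223 and 313 CPM against 86.7 to 129 CPM (1.22 ± 0.20). Of all 133 tumor monocytes, 32 had a single hashtag. The S100a8 and S100a9 rule of tumor mature neutrophils was also met by 59 of the 133, which the order of rules placed with monocytes. Cebpd was at 61.6, 83.1 and 138 CPM against 218 to 316 CPM (-1.43 ± 0.20), and Spi1 at 334, 349 and 438 CPM against 597 to 812 CPM (-0.81 ± 0.13). These 4 ranges did not overlap. Cebpa was at 16.6, 20.5 and 45.8 CPM against 52.7 to 107 CPM (-1.55 ± 0.36), which did not pass without tumor hashtag 3 (-1.04, adjusted p = 0.109). Irf8, at 82.2, 151 and 155 CPM against 116 to 196 CPM, did not pass (-0.16 ± 0.24). Cebpe had 0 UMIs in these sums and was called lower (adjusted p = 0.0443), a call lost in 9 of 18 settings. Over all 133 tumor monocytes, hashtag unknown included, it had 23 UMIs, or 5.41 CPM against 7.70 CPM over all blood monocytes, so no fold is given. In all 31.5% of genes passed and 6 of 7 tested members did, with a member median of -0.81 against -0.10. Macrophage markers summed to 1684 to 5613 CPM in the tumor sums and to 489 to 1622 CPM in blood, and monocyte markers to 2914 to 4026 and 5437 to 6772 CPM. The CD115 tag made up 2.35 of 10000 tag counts in tumor monocytes and 75.4 in blood monocytes. T cell markers summed to 45.8 to 1212 CPM in tumor and 0 to 101 CPM in blood monocyte sums, and dendritic cell markers to 729 to 2155 and 40.3 to 901 CPM. The part of these cells in the differences was not tested. Over all genes 16.1% rose and 15.3% fell. Of 40 other regulators 24 rose and 8 fell, with Egr1 at 6.84 ± 0.33, and 0 of 10 C/EBP targets rose and 5 fell, with Lyz2 at -1.28 ± 0.12.

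**Figure D4:**
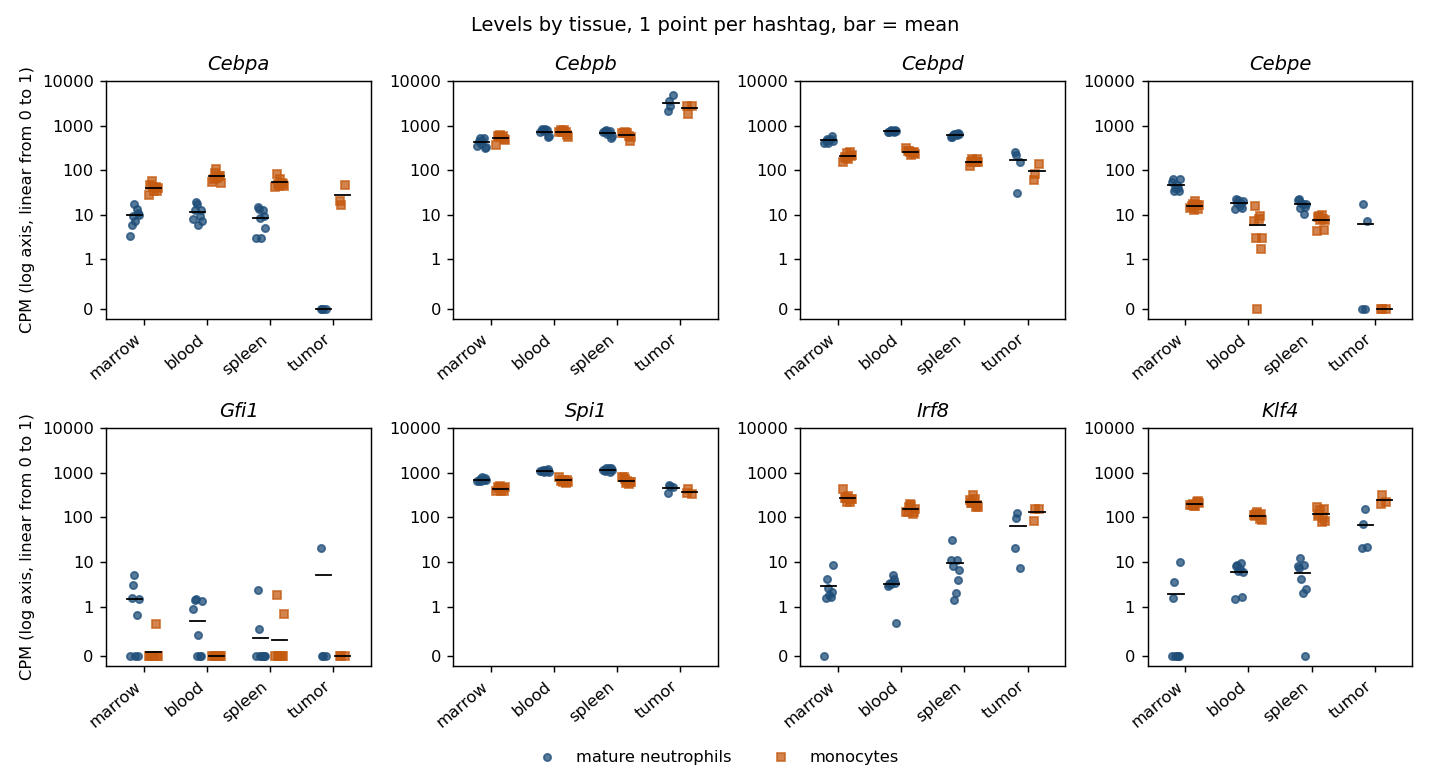
Level of each factor in mature neutrophils (circles) and monocytes (squares) of 4 tissues, in CPM on a log axis that is linear from 0 to 1; points are hashtag sums and bars are means. In tumor both classes lie at 1795 CPM or more for Cebpb, above all blood, spleen and marrow sums, and tumor neutrophils are scattered for Irf8 (7.29 to 124 CPM) and Klf4 (20.2 to 156 CPM).

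No factor passed between immature neutrophils of the spleen and of the marrow. In spleen, 5 sums of 25 to 44 cells had Cebpe at 440, 487 and 527 CPM against 443, 470 and 532 CPM in marrow, Spi1 at 380, 416 and 433 CPM against 362, 397 and 454 CPM and Gfi1 at 4.89, 17.7 and 31.8 CPM against 12.2, 17.7 and 20.4 CPM. The ranges overlapped for every member. Of 7 tested members 0 passed in edgeR and 0 in DESeq2, in a comparison where 0.989% of 7986 genes passed in edgeR. By unadjusted values at the 0.05 level 0 members passed in edgeR. Cebpd came nearest, at -0.15 ± 0.08 (unadjusted p = 0.0562). Klf4 was too low to be tested. Among the lists, Runx1 was higher in spleen (0.51 ± 0.09), as were Cd74, the class II chaperone (5.63 ± 0.75), and Fcnb (0.88 ± 0.17), and Mmp9 and Mmp8 were lower (-0.62 ± 0.10 and -0.86 ± 0.17).

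The change from immature to mature neutrophils differed between spleen and marrow for 3 members. The rise of Cebpd was larger in spleen by 0.58 ± 0.11 on the log2 scale and that of Spi1 by 0.77 ± 0.10, and the change of Cebpe was more negative, by -1.45 ± 0.20, in an edgeR interaction test where 17.5% of 8888 genes passed and 3 of 8 members did. The all-gene median of this interaction was 0.13. With cells thinned to 1000 UMIs the Cebpd interaction no longer passed (0.80, adjusted p = 0.0690). With TMM factors the Gfi1 interaction passed as well (-2.74, edgeR adjusted p = 0.0467). The monocyte minus neutrophil difference was lower in blood than in marrow for Klf4 (-2.31 ± 0.52), Cebpb (-0.40 ± 0.12) and Cebpd (-0.35 ± 0.13), 3 of 7 tested members where 21.2% of 10091 genes passed and the all-gene median was -0.28. With TMM factors the Cebpb interaction was -0.04 and that of Cebpd 0.01, and none of the 3 passed when cells were thinned to 1000 UMIs. The Cebpa interaction passed with TMM factors only (0.91, edgeR adjusted p = 0.0170).

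Kit-positive cells of the spleen held more Irf8 and Spi1 than those of the marrow. Irf8 was at 162, 449 and 644 CPM in spleen against 29.8, 73.1 and 108 CPM in marrow (2.66 ± 0.27), with ranges apart, and Spi1 at 87.2, 196 and 249 CPM against 46.7, 77.7 and 105 CPM (1.31 ± 0.17). Cebpd was also higher (8.33, 12.5 and 19.0 CPM against 5.63, 7.96 and 10.1 CPM; 0.80 ± 0.24) and Cebpa lower (1.03, 4.88 and 7.66 CPM against 7.37, 11.6 and 17.6 CPM; -1.31 ± 0.27). Of 6 tested members 4 passed, with 38.3% of 10374 genes. Markers of conventional dendritic cells, which depend on IRF8 in development, moved with this: the 6 markers summed to 1005 to 3744 CPM in spleen and 137 to 390 CPM in marrow sums. An H2-Ab1 UMI, from the class II beta chain gene, was present in 676 of 787 spleen and 194 of 469 marrow cells. The MHCII tag made up 2522 and 245 of 10000 tag counts, and the cKit tag 276 and 715. Without the cells that held H2-Ab1, 1 spleen sum and 6 marrow sums remained: Irf8 was at 5.25 CPM in the spleen sum and at 10.5 to 123 CPM in marrow. With 1 spleen sum left, and most spleen cells removed by the filter itself, no test is read from this. Spi1 and Irf8 met in 80 spleen Kit-positive cells thinned to 1000 UMIs, where the shares give 58.7. With all cells, where 17.8% of all genes were higher and 20.4% lower, 10 of 10 IRF8 or KLF4 targets were higher in spleen, as were 9 of 12 PU.1 targets. Of the IRF8 or KLF4 targets, Naaa (4.82 ± 0.30) and Ciita (5.45 ± 0.36) had the smallest adjusted p in edgeR. Of 43 other regulators 18 were higher and 16 lower, with Irf5 at 3.13 ± 0.25 and the homeobox gene Meis1 at -2.33 ± 0.18. The 41 Kit-positive cells of blood, too few to sum by hashtag, had Irf8 at 1090 CPM. Their MHCII tag made up 1804 and their cKit tag 99.3 of 10000 tag counts.

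Across the 13 combinations of class and tissue with at least 20 cells per sum, or 5 in tumor, each factor had its own order of mean levels. Cebpa was highest in blood monocytes (73.0 ± 17.9 CPM, SD, n = 8), followed by spleen monocytes (53.3 ± 14.1), marrow progenitors (48.8 ± 10.2, n = 7) and marrow monocytes (40.7 ± 8.87), neighbours whose ranges overlapped. Cebpb had both tumor classes first, neutrophils at 3293 ± 1190 CPM (n = 4) and monocytes at 2436 ± 555 CPM (n = 3), which overlapped, and then blood neutrophils (737 ± 111) and blood monocytes (708 ± 88.1), which did as well. Cebpd was led by blood (753 ± 25.6) and spleen neutrophils (624 ± 46.5), whose ranges were apart, and was lowest in Kit-positive cells of the marrow (8.14 ± 1.61). Spi1 was led by spleen (1162 ± 87.8) and blood neutrophils (1114 ± 53.0), which overlapped, and was also lowest in marrow Kit-positive cells (77.9 ± 17.1). Cebpe stood apart in immature neutrophils of spleen (479 ± 38.3, n = 5) and marrow (477 ± 31.8), and the next group, marrow progenitors, was at 77.2 ± 21.1. Gfi1 was first in marrow progenitors (34.7 ± 13.3), followed by marrow (16.6 ± 3.12) and spleen (16.6 ± 11.4) immature neutrophils, with overlap throughout. Irf8 was led by spleen Kit-positive cells (429 ± 153), marrow progenitors (320 ± 36.8), marrow monocytes (278 ± 65.7) and spleen monocytes (220 ± 49.7), each overlapping the next. Klf4 was highest in tumor (244 ± 61.7) and marrow monocytes (201 ± 21.2), which overlapped, followed by spleen (119 ± 34.5) and blood monocytes (110 ± 14.0) and marrow progenitors (100.0 ± 14.1).

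The genes whose means were most alike over these 13 groups, among 5505 genes and by Pearson correlation of log2(CPM + 10), are a description in which the points share libraries and hashtags. For Klf4 they were Ctsc (r = 0.981), Trem2 (0.971) and H13 (0.964), and for Irf8 they were Itpr1 (0.979), Mvb12a (0.966) and Rgs10 (0.959). For Gfi1 they were Ms4a3 (0.958), Prss57 (0.946) and Pxylp1 (0.888), of which the first 2 are known from granulocyte-monocyte progenitors. Cebpe had Mgst2 (0.972), Cldn15 (0.965) and Aff2 (0.960), and Cebpa had Os9 (0.945), Ldlrad3 (0.934) and Casp1 (0.934). Cebpb had Lamp2 (0.978), Selenok (0.966) and Atp6v0d1 (0.965), Cebpd had Pstpip1 (0.969), Gsr (0.969) and Pi16 (0.968), and Spi1 had Grk2 (0.976), Msrb1 (0.974) and Sema4a (0.971). Among the 8 themselves, Cebpd and Spi1 were most alike (0.925), then Irf8 and Klf4 (0.763) and Cebpe and Gfi1 (0.743), and Cebpd and Irf8 were least alike (-0.633).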

How the data were processed

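The deposited matrices hold UMI counts of RNA and antibody tags per cell, made by the authors with Cell Ranger 7.0.1 on the build mm10, per the submitters' processing notes. The tissue was taken from the barcode suffix. A cell was given a hashtag where 1 hashtag had at least 20 counts and 3 times the next, which 90.7% of blood cells had, 89.6% in marrow, 91.9% in spleen and 47.0% in tumor. Doublets were not called beyond this. Classes were assigned in the order immature, azurophil, monocyte, mature, Kit-positive. Counts were summed over at least 20 cells (5 in tumor) per class, tissue and hashtag.

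Sums were compared in edgeR 4.0.16 (quasi-likelihood, totals of RNA UMIs as library sizes, genes with at least 100 UMIs) under R 4.3.3, fitted on all genes. Alternatives were TMM factors, DESeq2 1.42.0, no filter, thinning to 1000 UMIs, cells meeting 1 rule, a mitochondrial limit of 5%, a hashtag block and leaving out each sum. On simulated data, 84% of 2-fold rises were recovered for mature against immature marrow neutrophils (11048 genes) and 40% for tumor against blood neutrophils (8364 genes). Of 2-fold falls, 78% and 20% were recovered, and of 4-fold falls in tumor 52%. Changes were simulated only in genes with many UMIs and with 1 fixed spread, so recovery for genes of low count was not measured. In the fits of 1 class over tissues, p-values measure the spread between hashtag sums, of both genotypes, within 1 library per tissue. The fits of marrow classes, progenitor sides and interactions had the hashtag as a block, and the tag test was paired by hashtag. Their p-values measure the spread of the differences within hashtags.

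The 8 members and all lists were chosen with earlier results of these data known. Named genes were the members, up to 3 genes per list with the smallest adjusted p, the 8 largest and 8 smallest log2 differences between the progenitor sides (called, at least 20 CPM, same sign in every hashtag) and the 3 genes most like each member. Some genes beyond these are named as examples, and were chosen after their values were seen. A gene that the rule names is not reported here. The planned split of progenitors at 2000 UMIs with 10 cells per sum could not be fitted, with 1 sum on 1 side, so 10000 UMIs and 5 cells were used, a choice made after cell numbers were seen. So were the alternatives with 5000 and 15000 UMIs, without H2-Ab1 cells and with 3% S100 genes in tumor.

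Tissues share hashtag names. In mature neutrophils, same-numbered sums of blood and spleen deviated together (r = 0.520 to 0.731 over 2575 genes). Those of blood and marrow (0.264 to 0.608) and of marrow and spleen (0.217 to 0.597) did as well. A sum was most like its own number in 8, 4 and 5 of 8 hashtags for these tissue pairs, in this order. Same-numbered monocyte sums had r of 0.272 to 0.609 (blood and marrow), 0.147 to 0.591 (blood and spleen) and 0.0189 to 0.468 (marrow and spleen). Pairing by number entered the alternative with a hashtag block. The reported fits of 1 class over tissues had no block. With the block, Klf4 in blood against marrow neutrophils was 1.57.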

Additional observations from a re-analysis of the deposited data

Results flagged for a closer look

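Of 94 groups of 4 to 8 hashtag sums tested, 10 had 1 sum far from the others, where chance gives about 1 in 20. Cebpe in marrow Kit-positive cells was at 33.6 CPM in hashtag 2, and the next sum was at 4.26 CPM. Cebpb in spleen Kit-positive cells was at 32.8 CPM in hashtag 5, against 17.0 CPM for the next. Irf8 stood out in spleen mature neutrophils at 30.3 CPM (hashtag 2, next 11 CPM) and in marrow monocytes at 426 CPM (hashtag 1, next 299 CPM). Klf4 did so in marrow immature neutrophils at 10.2 CPM (next 4.29 CPM) and in marrow mature neutrophils at 10.1 CPM (next 3.59 CPM), and Spi1 in blood monocytes at 812 CPM (next 693 CPM). The other 3 were Gfi1 values of 1 to 3 UMIs: 2.39 CPM in spleen neutrophils, 20.2 CPM in tumor neutrophils and 0.641 CPM in marrow monocytes.

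The change from immature to mature neutrophils differed between spleen and marrow by an interaction test in edgeR for Cebpd (0.58), Cebpe (-1.45) and Spi1 (0.77). The difference of monocytes from mature neutrophils differed between blood and marrow for Cebpb (-0.40), Cebpd (-0.35) and Klf4 (-2.31).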

How the results depend on the processing

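Over all alternatives, 1515 of 1625 member values kept their direction and side of the threshold, 49 lost and 9 gained a call and 52 changed sign. Counts of called genes were within 1.5 times the reported count in 211 of 237 settings and counts of called members in 223 of 237. The cause of a change was not tested except where fewer cells or UMIs entered by construction. The tumor sums of 5 to 18 cells and low UMI counts of Gfi1, Irf8 and Klf4 in neutrophils limit precision.

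With TMM factors, Gfi1 from progenitors to immature neutrophils was 0.0065, Cebpb in monocytes against mature neutrophils -0.28, Cebpa and Irf8 in blood against marrow neutrophils -0.043 and -0.17, Spi1 in spleen against blood neutrophils -0.0093, and Cebpe and Spi1 in spleen against marrow immature neutrophils -0.066 and -0.064. The interaction of Cebpa over neutrophil stages was -0.11, and those of monocytes against neutrophils were 0.0064 for Cebpd, 0.37 for Cebpe and 0.27 for Spi1; the interactions were not run in DESeq2. In DESeq2 the same comparisons gave -0.24 for Cebpb, -0.065 and -0.17 for Cebpa and Irf8, -0.031 for Spi1, and -0.059 and -0.056 for Cebpe and Spi1, with 198 called genes for spleen immature neutrophils (79 with library totals) and 1502 for the progenitor sides (2325). The share of called genes that were higher moved with TMM factors and DESeq2 from 22.4% to 48.9% and 36.1% (immature neutrophils against progenitors), 74.5% to 60.2% and 61.9% (monocytes against mature neutrophils), 77.4% to 54.2% and 51.3% (blood against marrow neutrophils), 60.6% to 38% in both (spleen against blood) and 57.0% to 43.3% and 44.4% (immature, spleen against marrow). With TMM alone it moved from 48.8% to 36.0% in tumor neutrophils, and in the interactions from 65.9% to 43.3% and from 20.7% to 61.0%. In DESeq2 it moved from 46.6% to 57.1% for Kit-positive cells.

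With no filter, spleen against blood neutrophils had 1 called member, and spleen immature neutrophils 264 called genes. With the hashtag as a replicate block, spleen against blood neutrophils had 2034 called genes (1204) and spleen immature neutrophils 37, where Cebpe was -0.0017, Spi1 -0.00061 and Irf8 -0.11. With the block Klf4 in blood against marrow neutrophils was 1.57 (adjusted p = 0.0135). Same-numbered spleen and marrow Kit-positive sums deviated together in 7 of 8 pairs (r = 0.0481 to 0.588), against 8 of 8 in mature neutrophils. The reported fit did not pair these Kit-positive sums by number, and the alternative with the block did.

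Thinned to 1000 UMIs, called genes numbered 674 for progenitors, 2996 for immature, 2819 for mature neutrophils and 3380 for monocytes in marrow. They numbered 1966 for blood and 735 for spleen neutrophils (1 member), 773 for tumor neutrophils (3 members), 404 for blood and 221 for tumor monocytes (1 member each), 28 for spleen immature neutrophils, 660 for spleen Kit-positive cells (2 members), and 206 and 183 for the interactions (0 members in the second). Klf4 from immature to mature neutrophils was then 1.80 (adjusted p = 0.0398), Cebpe 0.18 in spleen and 1.24 in tumor neutrophils, and Cebpb and Spi1 -0.058 and -0.010 in spleen immature neutrophils.

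Cells meeting 1 rule only gave 1558 genes and Irf8 at 0.36 in tumor monocytes, and no value for immature neutrophils and progenitors, nearly all of which meet several. Without H2-Ab1 cells, 1 spleen sum stood against 6 marrow sums, its spread assumed to be like theirs, and the filter itself removed most spleen cells, so the 212 called genes, 0 called members, Spi1 at -1.01 and Irf8 at -3.11 say nothing about stability. With at least 3% S100 genes in tumor, 1981 genes and 3 members were called, Cebpe was 0.039 and Klf4 -0.019.

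Leaving out each sum, Irf8 ranged from -1.06 to 0.13 and Klf4 from -1.45 to 0.73 from immature to mature neutrophils, Irf8 from -0.082 to 0.44 in blood against marrow neutrophils, and Klf4 from -0.36 to 0.096 in spleen against blood neutrophils, with 0 to 2 called members. Tumor monocytes had 1868 (without tumor hashtag 3) to 3034 called genes and Irf8 from -0.33 to 0.0037. Spleen immature neutrophils had 47 to 164 called genes (164 without spleen hashtag 1, 47 without spleen hashtag 7), Cebpe from -0.027 to 0.041, Gfi1 from -0.26 to 0.35, Spi1 from -0.0054 to 0.043 and Irf8 from -0.098 to 0.43.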
